A study of Mus musculus with 24 samples.

Results

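The 9 interferon signalling genes examined here were the receptor chains Ifnar1, Ifnar2, Ifngr1 and Ifngr2, the signal transducer Stat2, and the interferon regulatory factors Irf1, Irf2, Irf7 and Irf9. A region of the deposited ATAC-seq count table was taken as theirs when it overlapped the body of one of these genes, or when the nearest end of a protein-coding gene, within 50 kb, belonged to one of them. This gave 19 of the 13910 regions in the table. Ifnar1 had 4 regions, Ifnar2 had 3, Ifngr1 had 2, Stat2 had 1, Irf9 had 1, Irf1 had 3 and Irf2 had 5. Ifngr2 and Irf7 had no region under this rule and are not analysed here. All 19 regions passed the filter on low counts, as did 13325 regions in all, so no member was lost to it.

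Type I interferons bind a receptor made of the Ifnar1 and Ifnar2 chains, and type II interferon binds a receptor made of Ifngr1 and Ifngr2. Both receptors act through Janus kinases, which phosphorylate STAT proteins. Stat2 acts with Irf9 in a complex that binds the interferon-stimulated response element (ISRE), whereas STAT dimers bind the gamma-activated sequence (GAS). Irf1 is a transcriptional activator induced by interferon, Irf2 competes with it at shared sites, and hematopoietic stem cells lacking Irf2 are known to be driven into cycle by type I interferon.

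ATAC-seq counts transposase insertions, so a higher value at a region means more accessible DNA there. The study transplanted CD45.1 WT bone marrow into young CD45.2 recipients that were either WT or IκB–, the inhibitors of NF-κB being the IκB proteins. The labels do not give the allele behind IκB–. After 13 to 15 weeks, CD45.1+ donor cells were sorted from femur and tibia marrow as long-term hematopoietic stem cells (HSC) or as the multipotent progenitors MPP2, MPP3 and MPP4, with 500 to 1500 cells per sample. The sequenced cells were thus WT in all 8 groups, and within a subset only the host differed. All 4 subsets were Lin–, Sca1+ and cKit high. MPP4 was Flt3+ and the other subsets were Flt3–, MPP2 was CD150+ CD48+, MPP3 was CD150– CD48+, and the labels give the HSC gate as CD150– CD48–, whereas long-term HSC are usually gated as CD150+ CD48–, so which cells the HSC libraries hold rests on a label that could not be checked here. Each group had 3 libraries. The labels do not say whether these came from separate animals, so the tests measure the spread between these samples.

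Library totals ran from 121599 to 963699 counts, and the 19 regions took between 0.0953% and 0.141% of them. Replicates 2 and 3 of MPP3 from WT recipients agreed within sampling noise (chi-square of 1.005 for each degree of freedom over 13126 regions, p = 0.348), and were summed and counted as 1 sample. This left 23 replicates, with n = 2 in that group and n = 3 in the other 7. Replicate 3 of HSC from IκB– recipients stood furthest from the others of its group, at 59.3 on the first principal component (21.3% of the variance) against -45.1 and -24.5. Replicate 3 was the highest on this component in each of the 7 groups with n = 3. In HSC from WT recipients it lay at 2.77 against -28.0 and -28.4, and in MPP3 from IκB– recipients at 53.8 against 37.4 and 26.2. Leaving out 1 library therefore does not remove this shared shift. Of the stem and progenitor genes checked, Kit, Slamf1, Flt3, Cd34, Mecom and Ptprc had regions, with a summed level of 465 to 979 CPM per replicate, whereas Ly6a, Cd48 and Hoxa9 had none under the rule. None of the 5 T and NK cell genes had a region, 1 of 4 B cell genes did, 3 of 7 granulocyte-monocyte genes did, and 2 of 6 endothelial and stromal genes did (Cdh5 and Pdgfrb, 19.5 to 91.2 CPM summed). Values are given as CPM, counts per 1000000 of library size after TMM scaling. In these bulk samples, fewer cells with an open region and a less open region in every cell cannot be told apart.

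The promoters of Stat2, Irf2, Irf1 and Ifnar1 are shown because they carry letters that interferon-activated factors can bind, inside regions measured here. The searched motifs were the ISRE core, GAAA, any 2 bases and GAAA, or TTTC, any 2 bases and TTTC on the other strand, and GAS, TTC, any 3 bases and GAA, which reads alike on both strands. The window searched was 250 bases before to 50 after each transcript start that the RefSeq table gives on GRCm38.p6, the build called mm10. Capitals mark the matches in the 120-base stretches printed, all from the + strand, namely chr10:128270248-128270367 for Stat2, chr8:46739495-46739614 for Irf2, chr11:53769874-53769993 for Irf1 and chr16:91485099-91485218 for Ifnar1.
Stat2: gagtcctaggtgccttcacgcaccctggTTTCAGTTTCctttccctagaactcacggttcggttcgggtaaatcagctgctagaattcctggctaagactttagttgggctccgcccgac
Irf2: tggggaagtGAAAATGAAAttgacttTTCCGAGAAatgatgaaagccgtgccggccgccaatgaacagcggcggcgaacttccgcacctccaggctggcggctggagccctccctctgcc
Irf1: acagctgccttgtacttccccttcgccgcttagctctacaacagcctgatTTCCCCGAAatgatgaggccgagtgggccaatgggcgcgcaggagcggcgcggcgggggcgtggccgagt
Ifnar1: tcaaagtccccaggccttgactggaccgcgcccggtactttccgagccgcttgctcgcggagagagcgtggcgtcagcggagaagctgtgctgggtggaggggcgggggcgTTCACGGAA
The Stat2 promoter held an ISRE core match, the Irf2 promoter held both an ISRE core and a GAS match, and Irf1, Ifnar1 and Ifnar2 each held a GAS match. The ISRE core occurred in 3.44% and GAS in 8.30% of 32851 promoter windows of the same length, of which a gene can have several. The matches in Stat2, Irf2, Irf1 and Ifnar1 lay inside an accessible region of these data, and the GAS match of Ifnar2 lay outside its start region. The Stat2 match begins at the first printed base of its region, and whether starts in the deposited table count from 0 or 1 is not stated, so that base may lie just outside. A match is a description of letters and not evidence of binding.

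Where the 19 regions lay differed between the genes. At gene starts, within 1 kb of a gene end, were 7 of them (36.8%), against 55.9% of all regions tested, so most of the regions of these genes were distal. Ifnar1 had a start region at chr16:91484922-91485387, one 19.9 kb upstream, and 2 narrow ones 12 and 12.5 kb past its end, about 24 kb before the start of Ifngr2. Ifnar2 had a region at its start (chr16:91372670-91372975) and regions 5.4 and 17.2 kb upstream, the nearer of which, chr16:91366696-91367395, lies in the lncRNA gene Gm36587. Ifngr1 had a start region at chr10:19591546-19592190 and one 3.0 kb past its end. The single regions of Stat2, chr10:128270276-128270695, and of Irf9, chr14:55603902-55604306, were at their starts, and that of Stat2 also overlaps the gene Apof. Irf1 had a start region (chr11:53769782-53770363), one 5.9 kb upstream and one 16.6 kb past its end, inside the lncRNA gene Gm12216. Irf2 had a start region (chr8:46739427-46739850), regions 1.4 and 79.3 kb inside the gene, and regions 4.3 and 22.0 kb past its end. The spread between replicates was ordinary, with a median biological coefficient of variation of 0.195 over the 19 regions and 0.199 over all regions tested.

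**Figure D1:**
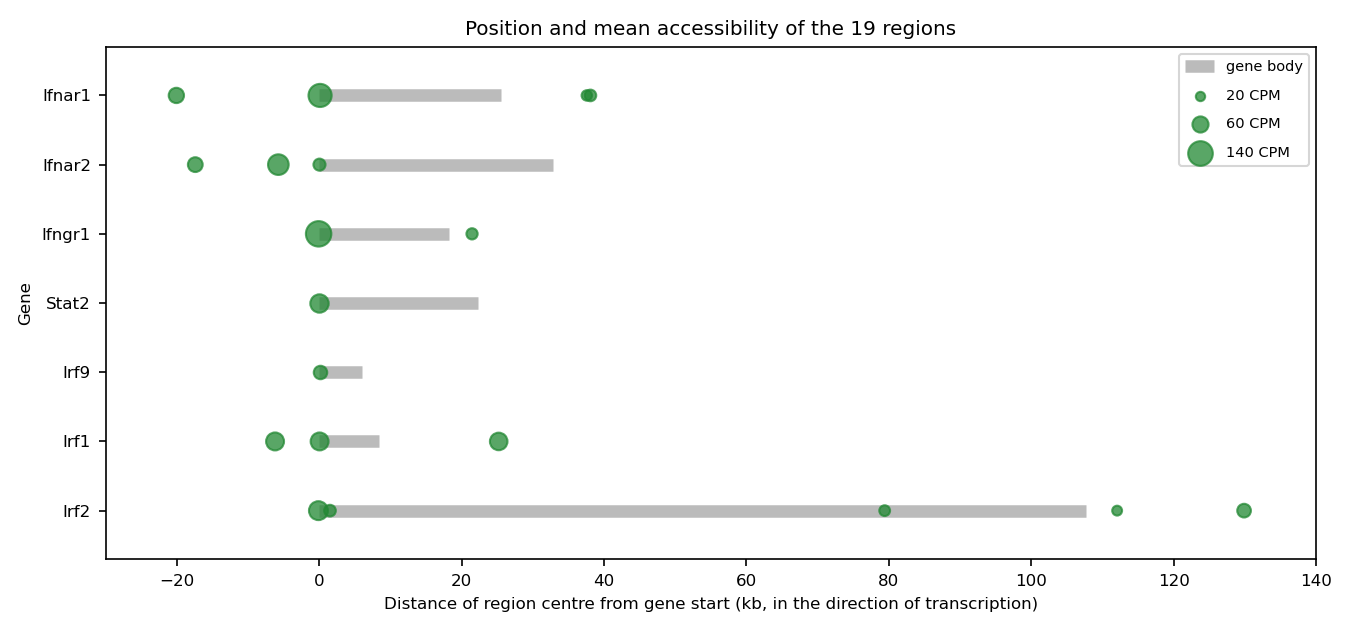
Position of the 19 regions along the 7 genes, as distance of the region's centre from the gene start in kb (x axis), one gene per row. Grey bars are gene bodies and the area of each green point is the mean CPM over 23 replicates. Ifnar2 and Irf1 have a region outside their start that is at least as high as the start region, and Stat2 and Irf9 have a start region only.

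The receptor chains of type I interferon were accessible in every group. The start region of Ifnar1 held 111, 115 and 200.5 CPM in MPP4, 135, 86.0 and 123 CPM in HSC, 102, 121 and 115 CPM in MPP2, and 118 and 127 CPM in MPP3 among WT recipients. The IκB– recipients gave 103, 91.2 and 123 CPM in MPP4, 89.5, 169.7 and 173 CPM in HSC, 94.6, 103 and 109 CPM in MPP2, and 132, 134 and 162 CPM in MPP3. Group means lay between 102 and 144 CPM, and no pair of groups next to each other in order of level was separated by more than their SDs. Libraries from WT recipients held 48.7, 73.0 and 62.1 CPM in MPP4, 73.4, 97.7 and 84.9 CPM in HSC, 121, 63.6 and 88.0 CPM in MPP2, and 98.6 and 81.1 CPM in MPP3 at the region 5.4 kb upstream of Ifnar2, the one with the highest mean of that gene. Those from IκB– recipients held 122, 129 and 160.2 CPM in MPP4, 82.6, 107 and 129 CPM in HSC, 83.4, 147 and 88.1 CPM in MPP2, and 70.8, 117 and 129.8 CPM in MPP3. The lowest group mean was 61.2 ± 12.2 CPM (SD, n = 3) in MPP4 from WT recipients and the highest was 137 ± 20.2 (n = 3) in MPP4 from IκB– recipients. These 2 groups did not overlap, as at 11.8% of all regions tested. Among WT recipients the region 17.2 kb upstream of Ifnar2 held 90.4, 45.2 and 38.2 CPM in MPP4, 36.7, 19.5 and 28.3 CPM in HSC, 51.1, 33.3 and 27.5 CPM in MPP2, and 55.0 and 64.3 CPM in MPP3. Among IκB– recipients the values were 54.4, 15.2 and 95.5 CPM in MPP4, 48.2, 35.7 and 88.7 CPM in HSC, 45.9, 36.7 and 34.7 CPM in MPP2, and 72.7, 74.98 and 67.6 CPM in MPP3. All 5 MPP3 replicates lay above all 6 MPP2 replicates here, as they did at 1.43% of all regions tested. The Ifnar2 start region held between 16.4 and 60.8 CPM and its groups overlapped broadly. The region 12 kb downstream of Ifnar1 held 34.8, 6.95 and 23.9 CPM in MPP4, 18.3, 23.5 and 18.9 CPM in HSC, 23.4, 0 and 16.5 CPM in MPP2, and 22.8 and 9.18 CPM in MPP3 among WT recipients. The IκB– recipients gave 13.6, 38.0 and 61.6 CPM in MPP4, 48.2, 35.7 and 39.9 CPM in HSC, 13.9, 7.34 and 24.03 CPM in MPP2, and 18.2, 35.1 and 46.0 CPM in MPP3. The value of 0 in MPP2 is a count of 0, which allows up to 9.09 CPM at 3 counts, for counting error only. The other 2 Ifnar1 regions ranged from 13.8 to 94.3 CPM at 19.9 kb upstream and from 12.2 to 44.7 CPM at 12.5 kb downstream.

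The type II receptor chain Ifngr1 had its signal at its start. Libraries from WT recipients held 97.3, 188 and 153 CPM in MPP4, 91.7, 164 and 151 CPM in HSC, 147, 152 and 181 CPM in MPP2, and 152 and 161 CPM in MPP3 at the start region of Ifngr1. Those from IκB– recipients held 125, 152 and 145 CPM in MPP4, 145, 98.3 and 253 CPM in HSC, 107, 117 and 152 CPM in MPP2, and 137, 173 and 195 CPM in MPP3. Its group means lay between 126 and 168 CPM and overlapped. The region 3.0 kb past the gene's end ranged from a count of 0 in 1 HSC replicate from IκB– recipients to 55.1 CPM in another of the same group, and that count of 0 allows up to 26.8 CPM at 3 counts.

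Stat2 and Irf9, which act in the complex that binds the ISRE, each had a start region only. Among WT recipients the start region of Stat2 held 76.5, 76.5 and 124 CPM in MPP4, 48.9, 102 and 70.7 CPM in HSC, 78.8, 75.8 and 77.0 CPM in MPP2, and 83.5 and 53.6 CPM in MPP3. Among IκB– recipients the values were 59.9, 91.2 and 74.0 CPM in MPP4, 82.6, 98.3 and 88.7 CPM in HSC, 80.6, 80.7 and 74.8 CPM in MPP2, and 78.5, 51.5 and 64.9 CPM in MPP3. Group means lay between 65.0 and 92.4 CPM. The 6 MPP2 replicates were close together, between 74.8 and 80.7 CPM. The start region of Irf9 held 20.9, 34.8 and 52.5 CPM in MPP4, 36.7, 54.7 and 37.7 CPM in HSC, 29.8, 45.5 and 66.0 CPM in MPP2, and 62.6 and 64.3 CPM in MPP3 among WT recipients. The IκB– recipients gave 49.0, 22.8 and 24.7 CPM in MPP4, 48.2, 8.93 and 57.7 CPM in HSC, 40.3, 7.34 and 61.4 CPM in MPP2, and 42.1, 37.5 and 56.8 CPM in MPP3. The lowest 2 replicates, at 8.93 and 7.34 CPM, were from HSC and MPP2 of IκB– recipients. Each is a count of 1, in libraries of 121599 and 146732 counts in total, so counting error is large there. The SDs of neighbouring groups overlapped throughout the order of group means, from 32.1 to 63.4 CPM.

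Irf1 and its antagonist Irf2 were accessible at their starts and at several distal regions. Libraries from WT recipients held 90.4, 45.2 and 85.9 CPM in MPP4, 73.4, 93.8 and 70.7 CPM in HSC, 57.5, 75.8 and 82.5 CPM in MPP2, and 66.4 and 67.4 CPM in MPP3 at the region 5.9 kb upstream of Irf1, which covers the microRNA gene Mir7671 and had the highest mean of that gene. Those from IκB– recipients held 51.7, 53.2 and 74.0 CPM in MPP4, 62.0, 26.8 and 106 CPM in HSC, 54.2, 110.1 and 93.4 CPM in MPP2, and 73.7, 119 and 73.0 CPM in MPP3. Across replicates this region tracked the Irf1 start region, with a Pearson r of 0.70 over 23 replicates, the highest of the 171 pairs among the 19 regions, whose median r was 0.0073. Among WT recipients the start region of Irf2 held 111, 69.5 and 85.9 CPM in MPP4, 55.0, 66.5 and 89.6 CPM in HSC, 80.9, 115 and 71.5 CPM in MPP2, and 66.4 and 58.2 CPM in MPP3. Among IκB– recipients the values were 109, 30.4 and 120.2 CPM in MPP4, 48.2, 98.3 and 115 CPM in HSC, 70.9, 110.1 and 85.4 CPM in MPP2, and 75.6, 86.7 and 83.8 CPM in MPP3. Group means lay between 62.3 and 89.2 CPM, and the SDs of all neighbouring groups overlapped. The region 1.4 kb inside Irf2 ranged from 13.8 to 76.0 CPM, that 79.3 kb inside from a count of 0, which allows up to 22.8 CPM in that MPP4 library, to 48.2 CPM, and that 4.3 kb past its end from 4.72 to 48.2 CPM.

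**Figure D2:**
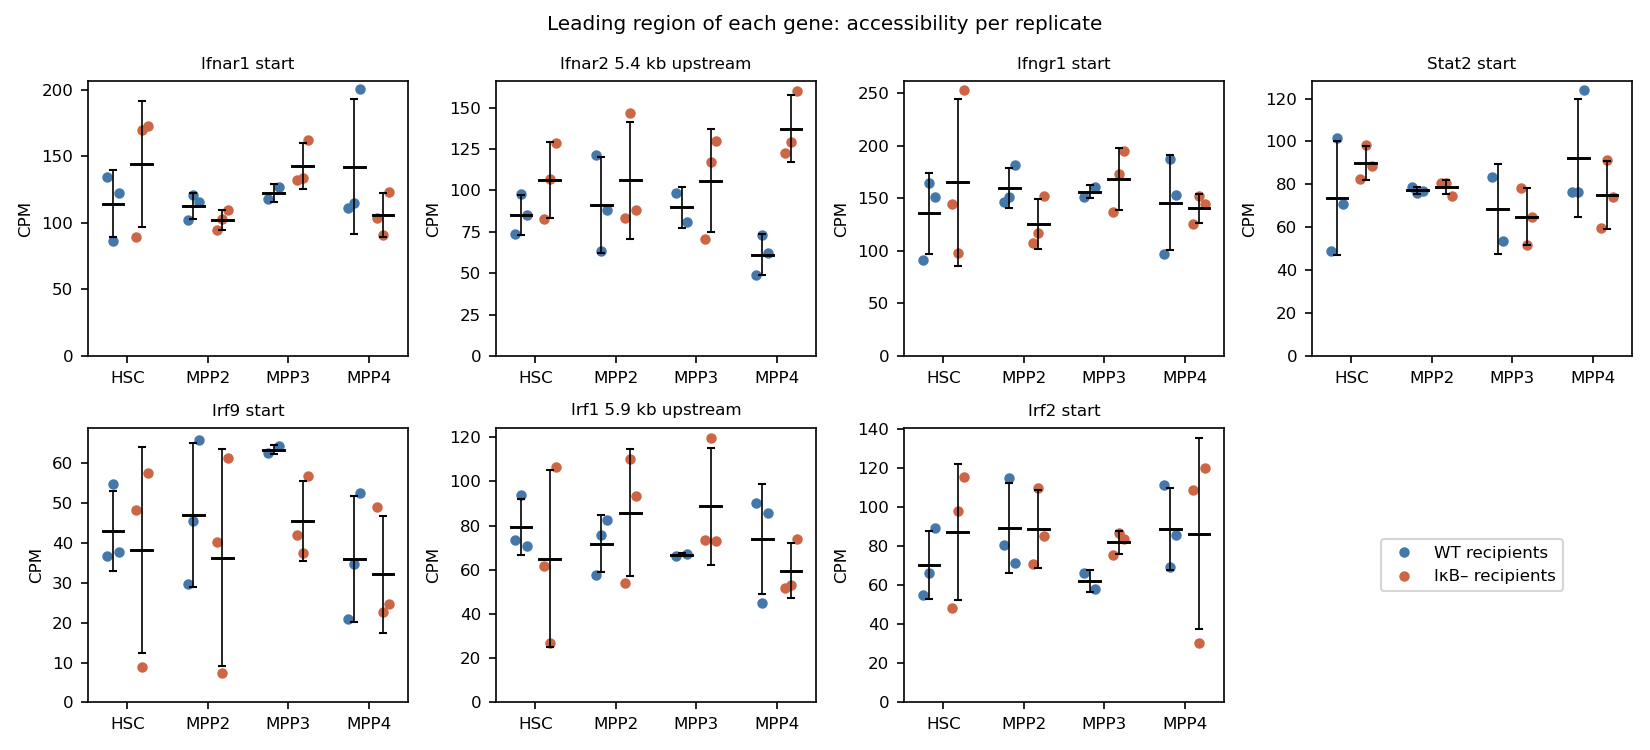
CPM (y axis) of the region with the highest mean CPM of each of the 7 genes, by subset (x axis). Points are replicates, bars are means and error bars are SDs (n = 3, and n = 2 for MPP3 from WT recipients). At 6 of the 7 the recipient types overlap in HSC, MPP2 and MPP4, and the exception is Ifnar2, whose 3 MPP4 replicates from IκB– recipients lie at 122 CPM or higher and those from WT recipients at 73.0 or lower (11.8% of all regions tested were apart in MPP4). In MPP3, with 2 replicates from WT recipients, the recipient types are apart at 4 of the 7, where 28.2% of all regions were.

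A subset difference was called at a distal region of Irf1 and, less stably, at one of Irf2. Between MPP3 and MPP2, averaged over both recipient types, 2 of the 19 regions passed the test, against 8.14% of all regions tested (1.88% higher and 6.27% lower in MPP3, or 250 and 835 regions; with cyclic loess scaling, 401 and 805). At an unadjusted p under 0.05 there were 3 of 19, against 21.8% of all. The share called among the 19 is close to the background. The region 16.6 kb past the end of Irf1, chr11:53794939-53795512, was more accessible in MPP3. The region 22.0 kb past the end of Irf2, chr8:46869465-46869831, was less accessible in MPP3. No start region of any of the 7 genes passed the test.

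The distal Irf1 region held 83.4, 59.1 and 119 CPM in MPP4, 85.6, 50.8 and 66.0 CPM in HSC, 40.5, 42.4 and 49.5 CPM in MPP2, and 58.8 and 87.3 CPM in MPP3 among WT recipients. The IκB– recipients gave 62.6, 68.4 and 80.1 CPM in MPP4, 34.4, 53.6 and 88.7 CPM in HSC, 38.9, 36.7 and 64.1 CPM in MPP2, and 102, 152 and 111 CPM in MPP3. Within each recipient type every MPP3 replicate lay above every MPP2 replicate, which held at 2 of the 19 regions and at 2.66% of all regions tested. The mean was 102 ± 34.2 CPM (SD, n = 5) in MPP3 and 45.3 ± 10.2 (n = 6) in MPP2, and HSC (63.2 ± 21.1, n = 6) and MPP4 (78.8 ± 22.0, n = 6) lay between. The fitted log2 fold change was 1.05 ± 0.23 (SE), with a 95% interval of 0.59 to 1.52 and an edgeR adjusted p of 0.00211. The log2 ratio of means was 0.73 in WT recipients and 1.39 in IκB– recipients. The interaction of recipient with subset, a joint edgeR test over all subsets, gave an adjusted p of 0.999, as at all 19 regions (unadjusted p = 0.168 here). Whether the MPP3 to MPP2 difference itself depends on the recipient was not tested. The call held in all 34 alternatives, with adjusted p between 2.94e-05 and 0.0446. MPP4 minus MPP2 gave 0.78 ± 0.25 on the log2 scale and did not pass the test (adjusted p = 0.0716). In that comparison 0 of the 19 passed, against 3.38% of all regions, and 2 of 19 had an unadjusted p under 0.05, against 15.6%. The difference between MPP4 and MPP2 at the distal Irf1 region passed in 5 alternatives, among them the replicate block (adjusted p = 0.0352) and the fits without replicate 3 of HSC from IκB– recipients (0.0388), without replicate 3 of MPP2 from IκB– recipients (0.0478) and without replicate 2 of MPP4 from WT recipients (0.0459).

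Libraries from WT recipients held 41.7, 45.2 and 23.9 CPM in MPP4, 61.1, 54.7 and 37.7 CPM in HSC, 46.8, 51.5 and 27.5 CPM in MPP2, and 37.9 and 41.3 CPM in MPP3 at the distal Irf2 region. Those from IκB– recipients held 38.1, 30.4 and 27.7 CPM in MPP4, 68.8, 53.6 and 22.2 CPM in HSC, 80.6, 44.0 and 80.1 CPM in MPP2, and 19.1, 39.8 and 18.9 CPM in MPP3. In IκB– recipients all MPP3 replicates lay below all MPP2 replicates, as at 15.1% of all regions tested, whereas in WT recipients the MPP3 replicates lay within the range of MPP2. The mean was 31.4 ± 11.4 CPM (SD, n = 5) in MPP3 and 55.1 ± 21.2 (n = 6) in MPP2, with a fitted log2 fold change of -0.84 ± 0.27 (SE), a 95% interval of -1.39 to -0.30 and an edgeR adjusted p of 0.0431. The log2 ratio of means was -0.08 in WT recipients and -1.39 in IκB– recipients. The interaction of recipient with subset, a joint edgeR test over all subsets, gave an adjusted p of 0.999, as at all 19 regions. Its unadjusted p here was 0.0805, the smallest of the 19. The fitted recipient effect was 0.73 ± 0.36 (SE) in MPP2 and -0.67 ± 0.40 in MPP3. Whether the MPP3 to MPP2 difference itself depends on the recipient was not tested. The call was lost in 13 of 33 alternatives, including total-count scaling (adjusted p = 0.0623), DESeq2 (0.106) and 11 of the 23 fits that left out 1 replicate. Those 11, with adjusted p from 0.0518 to 0.149, left out replicates 1 or 3 of MPP2, MPP3 or MPP4 from IκB– recipients, replicate 2 of HSC, replicates 1 or 2 of MPP2, or either replicate of MPP3 from WT recipients. The distal Irf1 and Irf2 regions had r = -0.59 over 23 replicates, the lowest of the 171 pairs. Group means were not removed, so the opposite MPP3 to MPP2 differences of these regions enter this r. It is not separate support for them.

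The third region with an MPP3 to MPP2 difference near the threshold was the one 17.2 kb upstream of Ifnar2, at 66.9 ± 7.87 CPM (SD, n = 5) in MPP3 and 38.2 ± 8.70 (n = 6) in MPP2. Its log2 fold change was 0.71 ± 0.26 (edgeR adjusted p = 0.0930), and it passed with the replicate block (0.0193) and without replicate 3 of HSC from IκB– recipients (0.0485). Without that library, the distal Irf1 region kept its call (log2 fold change 1.07, adjusted p = 0.000433), as did the distal Irf2 region (-0.84, adjusted p = 0.0214). The summed granulocyte-monocyte regions averaged 119 and 116 CPM in MPP3 and 77.1 and 89.7 CPM in MPP2 (WT and IκB– recipients), with Elane, Mpo, Ly6g and S100a8 having no region, and the summed megakaryocyte-erythroid regions averaged 216 and 198 CPM in MPP3 and 300 and 210 CPM in MPP2. Regions near gene ends (1 kb or less) took 67.3% to 71.9% of nuclear counts in MPP3 libraries and 65.4% to 68.3% in MPP2 libraries, and library totals were 292114 to 963699 and 146732 to 690277 counts. The part of these values in the result was not tested.

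**Figure D3:**
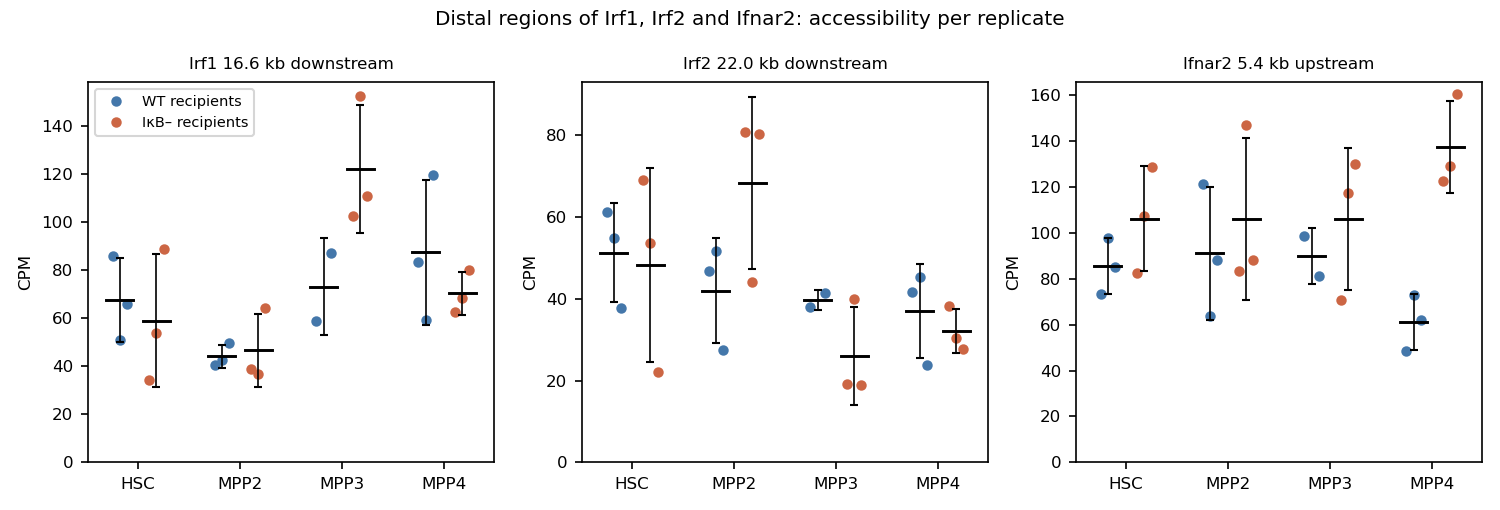
CPM (y axis) per replicate at 3 distal regions, by subset (x axis) and recipient type (colour); bars are means and error bars are SDs (n = 3, and n = 2 for MPP3 from WT recipients). At the Irf1 region MPP3 lies above MPP2 in both recipient types, at the Irf2 region MPP3 lies below MPP2 in IκB– recipients and within its range in WT recipients, and at the region 5.4 kb upstream of Ifnar2 the recipient types are apart in MPP4, as were 11.8% of all regions tested.

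The other subset comparisons called none of the 19 regions. All regions tested gave 0.03% for MPP2 against HSC, 2.57% for MPP3 against HSC, 1.27% for MPP4 against HSC and 0% for MPP4 against MPP3. With an unadjusted p under 0.05 there were 0, 2, 0 and 0 of the 19 regions, against 8.31%, 14.2%, 12% and 4.04% of all. The smallest p for MPP3 against HSC was again at the distal Irf1 region (log2 fold change 0.55 ± 0.24, adjusted p = 0.276), that for MPP4 against HSC at the region 17.2 kb upstream of Ifnar2 (0.49, adjusted p = 0.596), that for MPP2 against HSC at the region 12 kb downstream of Ifnar1 (-0.94, adjusted p = 0.619) and that for MPP4 against MPP3 at the Irf9 start (-0.57, adjusted p = 0.999). Single libraries moved 3 of these log2 fold changes. Without replicate 3 of HSC from IκB– recipients, the distal Irf1 value was 0.84 (adjusted p = 0.0595) and the Ifnar2 value 0.77 (adjusted p = 0.283). The Ifnar2 value was 0.31 without replicate 1 of MPP4 from WT recipients and 0.21 without replicate 3 of MPP4 from IκB– recipients, and the Ifnar1 value was -1.49 without replicate 1 of MPP2 from WT recipients.

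The recipient comparison asks whether WT donor cells carried other chromatin at these genes after 13 to 15 weeks in an IκB– host. None of the 19 regions passed the edgeR test in HSC, MPP2, MPP3 or MPP4, or on average over the 4 subsets, nor did any in the interaction of recipient with subset. The share of all regions called was 0%, 0%, 0.21% and 0.045% in the 4 subsets and 1.73% on average over them, and 0% in the interaction. At an unadjusted p under 0.05 there were 1, 1, 1 and 1 of the 19 regions in the subsets and 3 on average, against 6.31%, 3.65%, 9.52%, 7.1% and 14.3% of all, and 0 of 19 in the interaction, against 4.05%. DESeq2 and limma-voom called none of the 19 in these comparisons either. On average over the subsets, the 95% interval of the difference lay within a 2-fold change either way at 17 of the 19 regions.

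The start regions of Ifnar1, Ifngr1 and Stat2 gave average differences near 0. The log2 fold change, IκB– minus WT recipients, was 0.01 ± 0.13 (SE) at the Ifnar1 start with a 95% interval of -0.26 to 0.28, -0.01 ± 0.14 at the Ifngr1 start with -0.28 to 0.26, and -0.03 ± 0.16 at the Stat2 start with -0.35 to 0.28. Their direction turned when single replicates were left out. At the Ifnar2 start it was -0.10 ± 0.23, with a wider interval of -0.56 to 0.36. At the Irf1 region 5.9 kb upstream the interval was -0.32 to 0.41, at the Irf2 start it was -0.15 to 0.53 and at the Irf9 start it was -0.64 to 0.28.

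The smallest p for the average recipient difference was 5.4 kb upstream of Ifnar2. That region averaged 114 ± 27.8 CPM (SD, n = 12) in IκB– recipients and 81.1 ± 20.3 (n = 11) in WT recipients, with a log2 fold change over the subsets of 0.43 ± 0.16 (SE), a 95% interval of 0.11 to 0.74 and an adjusted p of 0.160. In MPP4 alone it was 1.12 ± 0.32 (95% interval 0.48 to 1.77, adjusted p = 0.357), and the 2 groups of 3 replicates did not overlap, as at 11.8% of all regions tested. The summed endothelial and stromal regions, 2 in all, moved the same way in MPP4 without overlap. They held 33.4 to 48.7 CPM in WT and 61.6 to 91.2 CPM in IκB– recipients, with Pecam1, Tek, Cxcl12 and Lepr having no region. Their mean was also higher in IκB– recipients in HSC and MPP2, but lower in MPP3 (66.0 against 70.5 CPM). At the Ifnar2 region the IκB– mean was higher in MPP3 too (106 against 89.9 CPM). The part of the endothelial and stromal regions in the result was not tested. Over all alternatives the adjusted p ranged from 0.0740 to 0.341 for the average and from 0.113 to 0.936 for MPP4, so neither passed in any. The average log2 fold change was 0.78 ± 0.34 at the region 12 kb downstream of Ifnar1 (adjusted p = 0.250) and -0.64 ± 0.29 at the region 3.0 kb downstream of Ifngr1 (adjusted p = 0.296), and neither passed.

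Within single subsets the smallest p fell at 4 different regions. In HSC it was 17.2 kb upstream of Ifnar2, at 1.19 ± 0.50 on the log2 scale (adjusted p = 0.710), and without replicate 3 of HSC from IκB– recipients the value was 0.64 ± 0.61. In MPP2 it was the distal Irf2 region (0.73 ± 0.36, adjusted p = 0.999), in MPP3 the distal Irf1 region (0.71 ± 0.30, adjusted p = 0.392, and 0.46 without replicate 1 of MPP3 from WT recipients) and in MPP4 the region 5.4 kb upstream of Ifnar2. The replicates of the recipient types did not overlap at 1 of the 19 regions for HSC, where 8.5% of all regions tested did not, at 2 for MPP2 (11.8%), at 6 for MPP3 (28.2%) and at 1 for MPP4 (11.8%). In MPP3, 5 of the 6 were higher in IκB– recipients, at the Ifnar1 start, 17.2 kb upstream of Ifnar2, 5.9 kb upstream and 16.6 kb downstream of Irf1 and at the Irf2 start, and the Irf9 start was lower. Of all regions tested in MPP3, 12.5% lay wholly higher and 15.7% wholly lower in IκB– recipients. MPP3 from WT recipients had only 2 replicates.

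**Figure D4:**
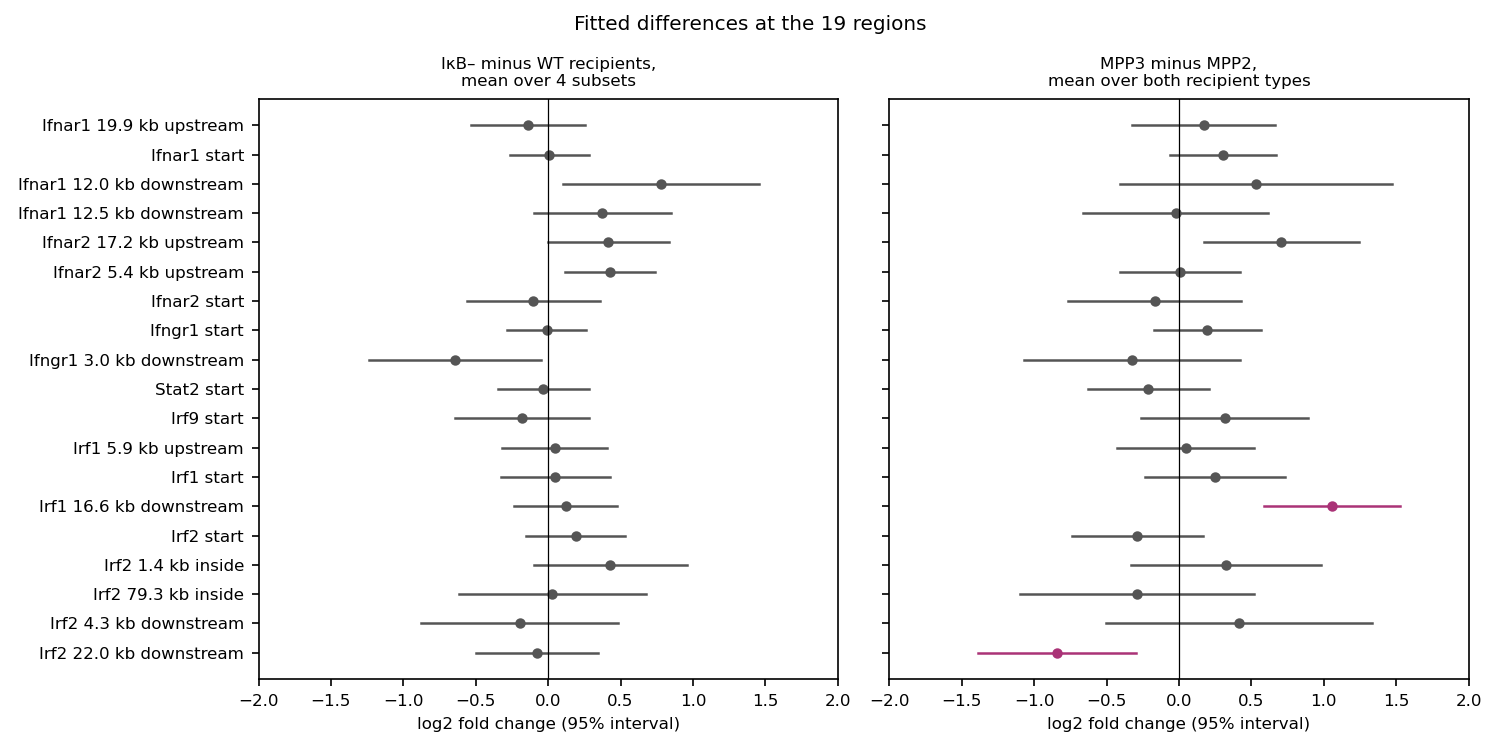
Fitted log2 fold changes with 95% intervals (x axis) at the 19 regions (rows), for IκB– minus WT recipients averaged over 4 subsets (left) and for MPP3 minus MPP2 averaged over recipient types (right), from the edgeR fit. Purple marks the 2 regions with an adjusted p under 0.05, both in the subset comparison, at 1.05 for the distal Irf1 region and -0.84 for the distal Irf2 region.

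Other genes of the pathway were read from a list of 84, of which 54 had a region and 67 of 71 regions were tested. None of the 67 passed in any recipient comparison. Between MPP3 and MPP2, 3 were higher and 2 lower in MPP3 (7.46%, against the 8.14% of all regions tested). Higher in MPP3 than in MPP2 were regions assigned to Sting1, the adaptor of cytosolic DNA sensing (log2 fold change of 1.77), to Ptpn11, a tyrosine phosphatase (1.06), and to Irf2bp2, a corepressor that binds Irf2 (0.74 ± 0.24, adjusted p = 0.0438). The Ptpn11 region was also higher in MPP4 than in MPP2 (log2 fold change of 1.08).

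For each gene's strongest region, the 3 regions of the table with the most similar log2 CPM over the 23 replicates were found, which share library depth with it. For Ifnar1 they were those of Sertad3 (r = 0.83), Bsg (0.82) and one with no gene within 50 kb (0.82). For Ifnar2 they were Crlf2 (0.84), Fyb (0.76) and Slc39a10 (0.76). For Ifngr1 they were Zzef1 (0.86), Ptpn1 (0.86) and Sh3bgrl3 (0.83). For Stat2 they included Mtpn (0.61) and Hdgf (0.61). For Irf9 they were Myh9 (0.78), Nrros (0.77) and Dgat2 (0.76). For Irf1 they were Zfp668 (0.80), C87436 (0.79) and Fahd1 (0.78), and for Irf2 they were Slc22a15 (0.76), Kdm4b (0.74) and Ndc80 (0.72). The 99th percentile of r over all regions lay between 0.44 for Stat2 and 0.68 for Ifngr1.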

How the data were processed

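The deposited table gives raw counts per region as whole numbers, not normalized, for 24 libraries; the authors' tools were Bowtie2, SAMtools, Picard, MACS2 2.1.0 and deepTools and the build mm10, per the submitters' processing notes, which give no roles or order. How regions were merged across libraries is not given in the sources used here. Coordinates are printed as in the deposited table.

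Gene ends and biotypes came from the RefSeq table for GRCm38.p6, the same build. Counts were tested with edgeR 4.0.16 (R 4.3.3; TMM scaling, filterByExpr by group, robust quasi-likelihood fit of 8 group means) in 12 contrasts, namely the recipient effect in each of 4 subsets, their mean, their interaction, and 6 subset differences. P-values were Benjamini-Hochberg adjusted over all 13325 regions, and regions with an adjusted p under 0.05 were called. The procedure was tested on simulated counts. Alternatives were DESeq2 1.42.0, limma 3.58.1 with voom, other scalings and filters, the replicate block, a 10 kb rule and leaving out each replicate.

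Full values are given for each gene's region of highest mean CPM, every called region and the smallest p in each contrast. The members and lists were chosen with earlier results of these data known. The rule for pairing samples was r above 0.1 at every number. Same-numbered libraries of the recipient types met it in HSC only (1 of 4 subsets, r from -0.05 to 0.38 over 12 pairs). Those of 2 subsets of 1 recipient type met it in 4 of 12 comparisons, so for most comparisons the numbers were not taken to pair samples. Yet a library correlated best with its own number, among the 3 of the other group, in 10 of 12 pairs between recipient types. Between subsets it did so in 32 of 36 pairs. The main tests do not model this grouping, and the replicate block does. Some regions of the pathway list and of the likeness search are not reported here.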

Additional observations from a re-analysis of the deposited data

How the results depend on the processing

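The count of the 19 regions called stayed at 0 in every alternative for the 5 recipient contrasts, the interaction and 4 of the 6 subset differences. Between MPP3 and MPP2 it was 2, and 1 with total-count scaling, 1 with a mean of at least 20 counts (9 regions tested), 1 with DESeq2, and 1 to 3 without 1 replicate, the 3 without replicate 3 of HSC from IκB– recipients; under the 10 kb rule (13 regions), which leaves out the distal Irf1 and Irf2 regions, it was 0. Between MPP4 and MPP2 it was 0, and 1 with the replicate block, 1 with the block within recipient type, which was chosen after seeing the data, and 0 to 1 without 1 replicate. The replicate block with 24 libraries kept apart gave 3 calls between MPP3 and MPP2 and 2192 over all regions. All regions gave 1294 for 24 libraries without the block and 1085 with 23 replicates. In 42 of 48 pairs a library correlated best with its own number, among the 3 of the other group. This grouping is seen in the data and is not stated in the design, and the main tests leave it out. The block changed no call among the 19 in the other 10 comparisons. Over all regions, MPP3 against MPP2 gave 78 calls with the strict filter, 1659 with limma-voom and 2439 with the block within recipient type, and the mean recipient effect gave 231, and 8 with the strict filter, 147 with DESeq2, and 481 with the block against 287 for the same 24 libraries without it. The recipient effect in MPP3 gave 28, and 3 with the strict filter, 147 with limma-voom, 80 for 24 libraries kept apart and 357 with the block, and that in MPP4 gave 6, and 0 to 9. With all replicates, counts for the other subset differences were 4 (3 to 36) for MPP2 against HSC, 343 (23 to 919) for MPP3 against HSC, 169 (13 to 446) for MPP4 against HSC, 450 (30 to 961) for MPP4 against MPP2 and 0 (0 to 13) for MPP4 against MPP3, and the interaction gave 0 (0 to 17). Average recipient differences near 0 turned sign. That at the Ifnar1 start was -0.011 with cyclic loess, -0.013 with the strict filter, -0.00079 with the block and -0.039 to 0.096 without 1 replicate. Without 1 replicate it was -0.14 to 0.050 at the Ifngr1 start, -0.11 to 0.13 at Irf1 5.9 kb upstream and -0.11 to 0.051 at the Stat2 start. The cause was not tested. With 18.7 counts per replicate at the median member region, single-subset intervals were wide.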
